A study of Mus musculus with 12 samples.

Results

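The Clca genes encode the calcium-activated chloride channel regulators, a family of secreted or membrane-anchored proteins made by epithelia. Here 5 of its genes, Clca3b, Clca3a2, Clca3a1, Clca1 and Clca2, were followed in mouse endometrium, out of 19938 genes that the array annotation names singly. They were chosen by family and because the Clca3 genes, Clca3b, Clca3a2 and Clca3a1, stood among the largest increases after mating in these same arrays. Differences of these genes from unmated controls are therefore a description, and their intervals and calls against control are not read as evidence. Each of the 5 genes was read by 1 transcript cluster (the set of probes for 1 gene) that carried no other symbol, and each cluster's RefSeq accession pointed to the gene of that name in the reference table. This mattered because older names overlap: Clca1 and Clca2 were once symbols of Clca3a1 and Clca3a2.

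RNA came from scraped endometrium of CBAF1 females, the F1 offspring of CBA and C57Bl/6 mice. Females had mated 8 h earlier with BALB/c males that were either intact or vasectomized, vasectomized males giving an ejaculate that lacks sperm and the fluids of testis, epididymis and vas deferens, or were unmated virgins. Each group had 4 arrays, each with RNA pooled from 4 females, so the spread between arrays is that of pools and not of single females. The unmated females are labelled estrus, but the methods place their collection in the evening of pro-estrus, whereas mated females were collected later, so mating and the time of collection cannot be told apart. Values are log2 expression as deposited, from 2.68 to 14.87 over the table, with array medians of 7.255 to 7.315. One log2 unit is a doubling of signal, and because each gene has its own probes, values are compared between groups and not between genes.

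CLCA proteins were first taken for chloride channels themselves and are now known to act on other channels and on the cell surface. They carry a metalloprotease domain and cleave their own chain. Human CLCA1, a product of goblet cells, holds the calcium-activated channel TMEM16A (Ano1) at the cell surface, and mouse Clca1 is a classical gene of mucous cell change in the airway. CLCA2 is anchored in the membrane and is known from stratified epithelium. In the human genome the counterpart of the mouse Clca3 genes is a pseudogene.

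Promoter windows of Clca3b and Clca3a1 are shown because both genes were highest in intact-mated and lowest in control females. Each runs from 250 bases before to 50 after the RefSeq start site in build GRCm38.p6, on the minus strand, and reads 5′ to 3′ in the direction of the gene. The windows are chr3:144849253-144849552 for Clca3b and chr3:144760928-144761227 for Clca3a1. Capitals mark the octamer and AP-1 letters found in Clca3b.
Clca3b: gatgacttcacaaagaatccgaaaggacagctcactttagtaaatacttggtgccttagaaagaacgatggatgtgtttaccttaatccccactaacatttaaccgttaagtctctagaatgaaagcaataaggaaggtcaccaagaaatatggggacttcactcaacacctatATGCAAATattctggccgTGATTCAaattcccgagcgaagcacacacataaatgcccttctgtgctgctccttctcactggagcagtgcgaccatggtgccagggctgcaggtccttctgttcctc
Clca3a1: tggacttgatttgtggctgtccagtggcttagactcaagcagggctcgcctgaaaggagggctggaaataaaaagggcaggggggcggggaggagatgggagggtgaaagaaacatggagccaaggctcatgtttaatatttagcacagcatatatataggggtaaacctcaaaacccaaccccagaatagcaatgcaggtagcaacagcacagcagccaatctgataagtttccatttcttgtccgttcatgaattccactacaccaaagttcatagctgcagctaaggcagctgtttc
In a local alignment the longest ungapped stretch of these windows was 15 bases with 13 identical. The windows of Clca3b, Clca3a1 and Clca2 were searched on both strands for 7 short motifs, picked with the sequences in view. The octamer ATGCAAAT, bound by POU factors, lay at positions -76 to -69 in Clca3b, where 1 is the first transcribed base, and 1.74% of all 32851 promoter windows held it. The AP-1 letters TGANTCA lay at -58 to -52 in Clca3b (7.81% of all windows). The STAT letters TTCNNNGAA were found in Clca2 and in 8.3% of all windows. The canonical NF-κB site, a looser form of it, the C/EBP letters TTGCNNAA and TATAAA were in none of these windows, and in 0.155%, 1.63%, 10.8% and 13.6% of all windows. Clca3a1 held none of the 7 motifs. The window of Clca4b, a further family member, held TATAAA at -166 to -161 and at -119 to -114 on the opposite strand and no other of these motifs. A match is a run of letters and was not tested as a binding site.

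Clca3b was highest in intact-mated females, intermediate in vasectomized-mated females and lowest in unmated controls. Its log2 values were 12.12, 12.66, 12.11 and 11.82 in intact-mated females, 10.11, 10.39, 11.06 and 10.58 in vasectomized-mated females, and 7.52, 8.54, 7.31 and 6.86 in unmated controls. No array of one group reached into the range of another. The share of all genes with such separate groups was not counted, so this is a description, here and for the genes below. The means were 12.18 ± 0.35, 10.53 ± 0.40 and 7.56 ± 0.71 in the intact-mated, vasectomized-mated and control groups (SD, n = 4 each). Relative to controls this is a log2 fold-change of 4.62 in intact-mated females (SE 0.31, 24.6-fold) and of 2.98 in vasectomized-mated females (SE 0.31, 7.87-fold). Both were the highest of all 19938 genes. In endometrial tissue, more expressing cells and more RNA per cell cannot be told apart.

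Clca3a2, the neighbour of Clca3b on the chromosome, had the same order. It read 12.09, 12.15, 11.74 and 11.91 in intact-mated females, 10.35, 10.49, 11.19 and 10.52 in vasectomized-mated females, and 7.22, 8.20, 8.00 and 7.35 in controls. Again the 3 groups did not overlap. The means were 11.97 ± 0.19, 10.64 ± 0.37 and 7.69 ± 0.48 in the same order of groups (SD, n = 4 each). The log2 fold-change from control was 4.28 (SE 0.23, 19.4-fold) in intact-mated females and 2.94 (SE 0.23, 7.70-fold) in vasectomized-mated females, rank 2 among all genes in both.

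Clca3a1 had the same order of groups, with smaller differences from control. Its values were 9.84, 10.03, 9.76 and 9.80 in intact-mated females, 8.17, 8.26, 8.92 and 8.44 in vasectomized-mated females, and 6.32, 6.90, 6.72 and 6.39 in controls, with no overlap between groups. The means were 9.85 ± 0.12 in intact-mated females, 8.45 ± 0.33 in vasectomized-mated females and 6.58 ± 0.27 in controls (SD, n = 4 each). The log2 fold-change from control was 3.27 (SE 0.16, 9.65-fold, rank 9) in intact-mated females and 1.86 (SE 0.16, 3.64-fold, rank 18) in vasectomized-mated females.

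Clca1, the goblet cell member, was bright in every pool, near the top of the scale. Its values were 14.05, 13.93, 13.98 and 13.94 in intact-mated females, 14.01, 14.05, 14.06 and 14.00 in vasectomized-mated females, and 13.91, 13.72, 13.74 and 13.52 in controls. The mated groups overlapped, and control replicate 1 came within 0.01 of the lowest intact-mated array. Relative to controls Clca1 was 1.19-fold (95% interval 1.06 to 1.33) in intact-mated females and 1.24-fold (95% interval 1.10 to 1.39) in vasectomized-mated females. Whether such bright signal is compressed, which would lower these folds, was not tested.

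Clca2, the member of stratified epithelium, was dim and had overlapping groups. It read 5.79, 5.88, 6.25 and 6.30 in intact-mated females, 6.20, 5.88, 5.89 and 5.84 in vasectomized-mated females, and 6.50, 6.45, 5.97 and 5.68 in controls, all below the array medians. The fold-change from control was 0.936 (95% interval 0.713 to 1.23) in intact-mated females and 0.872 (95% interval 0.664 to 1.14) in vasectomized-mated females. Both signs turned with control replicates 3 and 4 only, to log2 fold-changes of 0.23 and 0.13.

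**Figure D1:**
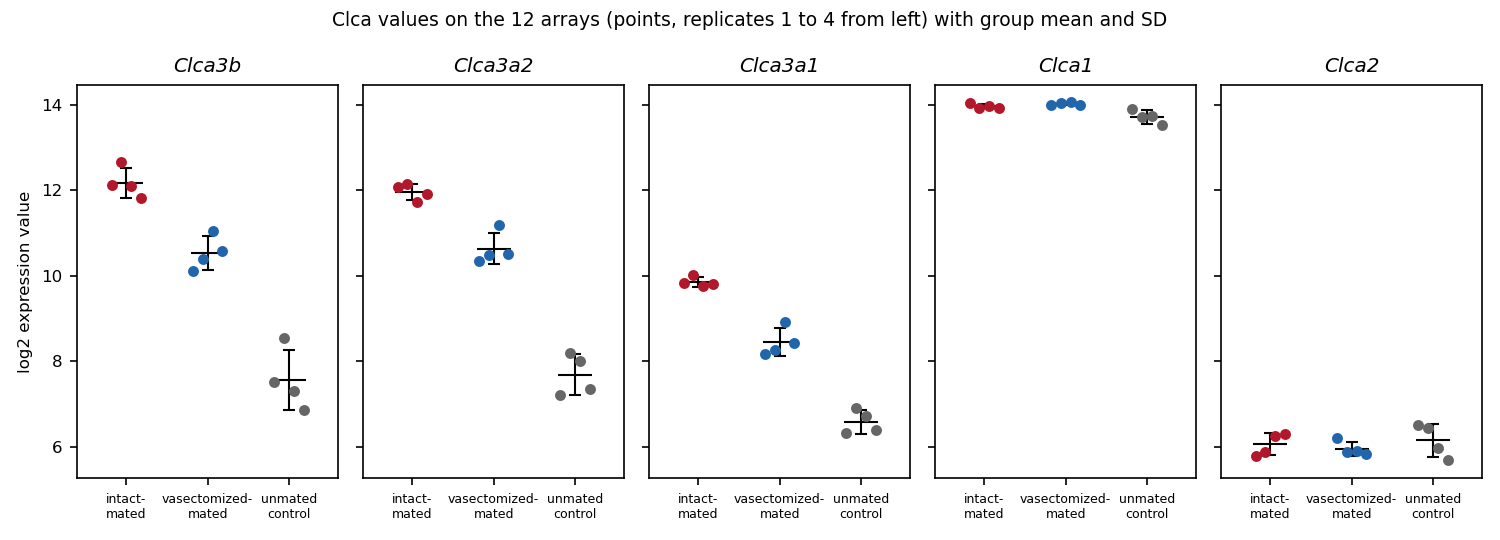
Log2 expression values (vertical axis) of the 5 Clca genes on 12 arrays in intact-mated, vasectomized-mated and unmated control females. Points are arrays, bars are group means with SD (n = 4), and the 3 groups are separate for Clca3b, Clca3a2 and Clca3a1, while Clca1 stays near 14 and Clca2 near 6. The share of all genes with separate groups was not counted.

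Calls needed a change of 1.5-fold or more with a limma p not above 0.05 after Benjamini-Hochberg correction over all 35556 transcript clusters. A gene that met the p limit with a smaller change was therefore not called. By this rule 3 of the 5 genes were called higher and 0 lower in intact-mated females, beside 2.78% of all genes called higher. In vasectomized-mated females 3 were higher and 0 lower, beside 1.19% of all genes called higher. These counts follow from the choice of genes. The median log2 fold-change of the 5 genes was 3.27 and 1.86 in intact-mated and vasectomized-mated females, against 0.01 and -0.01 over all genes. Both comparisons use the same 4 control arrays.

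The direct comparison of the mated groups asks whether the level differed with sperm and the fluids of testis, epididymis and vas deferens, which cannot be told apart here. Clca3b, Clca3a2 and Clca3a1 were higher in the intact-mated group, and Clca1 and Clca2 were not called. The intact arrays also stood behind the choice of these genes, so the comparison is not fully independent of it. Clca3a1 differed by a log2 fold-change of 1.41 (SE 0.16, limma adjusted p = 0.00433), that is 2.65-fold. Clca3a2 differed by 1.33 (SE 0.23, limma adjusted p = 0.0141) and Clca3b by 1.65 (SE 0.31, limma adjusted p = 0.0216), or 2.52-fold and 3.13-fold. For each of them the lowest intact-mated array exceeded the highest vasectomized-mated array, by 0.84 for Clca3a1, 0.55 for Clca3a2 and 0.77 for Clca3b. The share of all genes separated in this way was not counted, so the separation is only a description. The 3 calls compare with 0.627% of all genes called higher here.

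Clca1 differed between the mated groups by a log2 fold-change of -0.06 (95% interval -0.22 to 0.11, limma adjusted p = 0.772). For Clca2 the difference was 0.10 (95% interval -0.29 to 0.49, limma adjusted p = 0.83). As folds the intervals run from 0.858 to 1.08 for Clca1 and from 0.818 to 1.41 for Clca2, on the scale of the array signal. The call of Clca3b was lost without intact replicate 2 (limma adjusted p = 0.0713), intact replicate 3 (0.0512) or vasectomized replicate 1, 2 or 4 (0.0611, 0.0541 and 0.0580), and that of Clca3a2 without intact replicate 2 (0.0502). Clca3a1 stayed called in each of these fits, where its highest adjusted p was 0.0221.

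**Figure D2:**
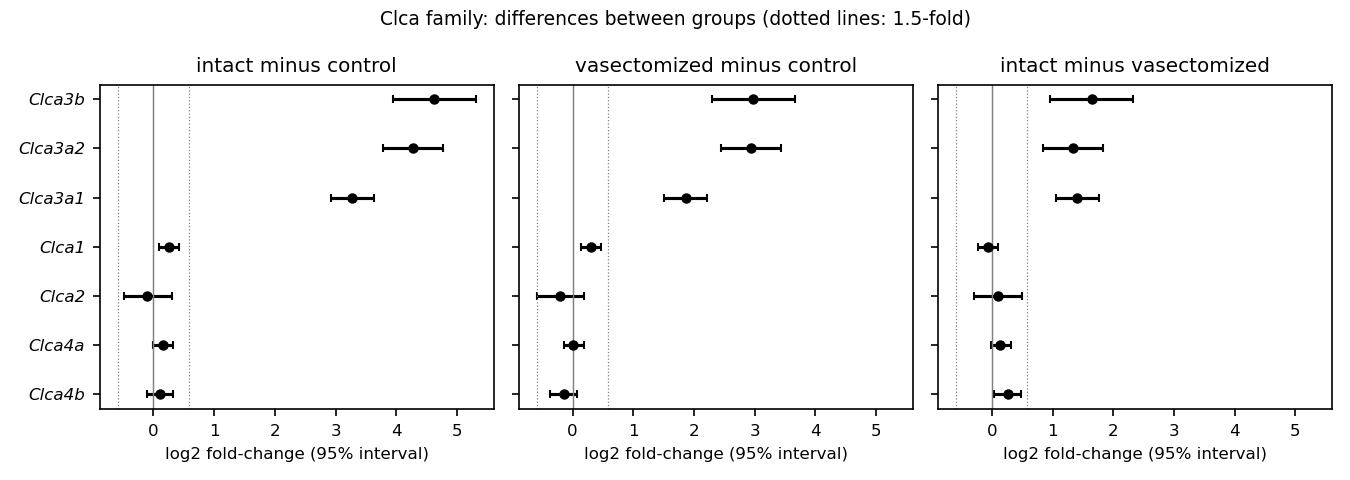
Log2 fold-change (horizontal axes) with 95% interval for 7 Clca genes in the 3 comparisons. Dotted lines mark 1.5-fold, and the points of Clca3b, Clca3a2 and Clca3a1 lie beyond it in every panel while those of the 4 other genes lie within it. Of these, Clca1 against control and Clca4b between the mated groups have intervals above 0.

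The differences from control were larger for Clca3a2 than for Clca3a1, whose control values of 6.32 to 6.90 lay below the array medians. Signal over background was not measured, so a floor under the control values of Clca3a1 was not tested, and between the mated groups the 2 genes had log2 fold-changes of 1.33 and 1.41. The log2 fold-change in vasectomized-mated females was 64.4% of that in intact-mated females for Clca3b, 68.8% for Clca3a2 and 57.0% for Clca3a1. The surplus of Clca3a2 over Clca3a1 was 1.01 ± 0.11 log2 units in intact-mated arrays and 1.08 ± 0.08 in vasectomized-mated arrays (SD, n = 4 each), relative to the control mean of their difference, which itself varied by 0.21 (SD). Between Clca3b and Clca3a2 the corresponding surplus was 0.34 ± 0.28 and 0.03 ± 0.13 in the intact-mated and vasectomized-mated arrays, against a spread of 0.53 (SD) in controls, so these neighbours did not part beyond the spread of the control pools. Probe sequences were not used here, and how the signal divides between the paralogs is uncertain.

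The highest pool of each group was the same for all Clca3 genes. Intact replicate 2, vasectomized replicate 3 and control replicate 2 were the highest of their groups for Clca3b, Clca3a2 and Clca3a1. Vasectomized replicate 1 was the lowest of its group for each. The spread of Clca3b among controls, 1.68 log2 units between the lowest and the highest pool, was wider than in the mated groups, at 0.84 in intact-mated females and 0.95 in vasectomized-mated females. Clca1 was highest in intact replicate 1, vasectomized replicate 3 and control replicate 1, so it shared the highest pool of the vasectomized-mated group only. Summed levels of marker lists add unlogged signals, so the brightest genes of a list weigh most, among neutrophil markers Itgam. In the controls replicate 2 had the lowest summed level of neutrophil markers (11.59, others 11.94 to 12.28) and of epithelial markers (15.63, others 15.67 to 15.80), whose part in this order was not tested. Control replicates 1 and 2 also stood apart from 3 and 4 in the summed level of stromal markers (14.25 and 14.04, against 13.40 and 13.40) and of endothelial markers (11.43 and 11.36, against 10.32 and 10.34). Clca2 followed this split, at 6.50 and 6.45 against 5.97 and 5.68, and the part of these markers in its sign was not tested.

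Along chromosome 3 the family lies in 1 cluster, in the order Clca3a1, Clca3a2, Clca3b, Clca4b, Clca4a, Clca1 and Clca2, with the pseudogene Clca4c-ps between Clca3b and Clca4b. The increase was seen in the Clca3 genes at one end. Clca4b and Clca4a, 2 further family members of epithelia, were dim, and of these 0 were called in any of the 3 comparisons (limma). At an unadjusted p under 0.05 there were 0, 0 and 1 for intact against control, vasectomized against control and intact against vasectomized. Clca4b averaged 5.02 ± 0.07, 4.76 ± 0.22 and 4.90 ± 0.11 in intact-mated, vasectomized-mated and control females (SD, n = 4 each), and Clca4a 5.85 ± 0.07, 5.71 ± 0.12 and 5.70 ± 0.10. A transcript cluster annotated to both genes averaged 6.92 ± 0.12, 6.86 ± 0.10 and 6.78 ± 0.12.

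Of the 4 protein-coding genes that flank the cluster, 0 passed in any comparison by limma (before correction p was under 0.05 for 2, 1 and 1). Sh3glb1, a membrane-curving protein next to Clca3a1, had log2 fold-changes of -0.01 and 0.02 in intact-mated and vasectomized-mated females. Odf2l, next to Clca2, had -0.43 and -0.15.

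**Figure D3:**
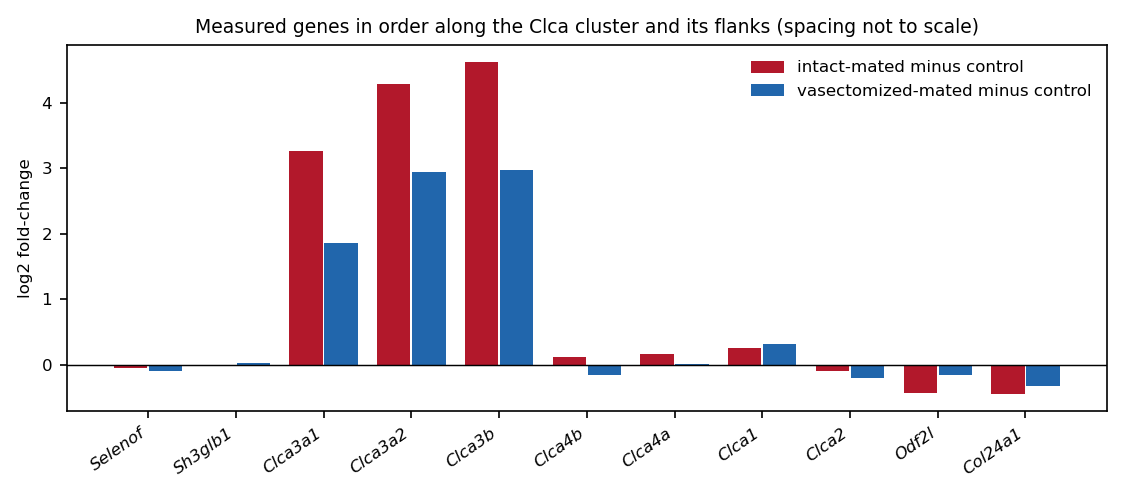
Log2 fold-change from control (vertical axis) of the measured genes in their order along the Clca cluster and its flanks, with red bars for intact-mated and blue bars for vasectomized-mated females. Clca3a1, Clca3a2 and Clca3b stand out at one end, and the 8 other genes lie between -0.45 and 0.31.

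Genes outside the family were ranked by likeness to each Clca3 gene, as the root mean square difference of their values over the 12 arrays after each gene was centred on its own mean. This is a description of the same arrays. The gene closest to Clca3b was its paralog Clca3a2, at 0.35 log2 units. Outside the family Cxcl2 came next at 0.40, then Cxcl5 at 0.47, both of them neutrophil-attracting chemokines. Slc26a4, the anion exchanger pendrin, lay at 0.50, the chitinase-like Chil1 at 0.52 and the TNF-induced Tnfaip2 at 0.54. For Clca3a2 the order was Cxcl2 (0.45), Chil1 and Tnip3 (0.48 each), Cxcl5 (0.51) and Slc26a4 (0.54), where Tnip3 encodes a restrainer of NF-κB.

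The list for Clca3a1 shared Tnip3 with that of Clca3a2 and held 4 further genes. Sprr2b, a small proline-rich protein of the epithelial surface, differed from it by 0.25, Il1f9, which encodes IL-36γ, by 0.27, Sprr2d by 0.36, Ly6i by 0.38 and Tnip3 by 0.39. The log2 fold-changes of Sprr2b were 3.05 and 1.93 in intact-mated and vasectomized-mated females, and those of Il1f9 3.11 and 1.94. The paralogs of Clca3a1 lay farther off, Clca3a2 at 0.51 and Clca3b at 0.66. The measure is not scaled for the size of change. In intact-mated females the log2 fold-change from control was 3.27 for Clca3a1, 4.28 for Clca3a2 and 4.62 for Clca3b. Clca1 and Clca2, which spanned less than 1 log2 unit over all arrays, were not ranked.

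**Figure D4:**
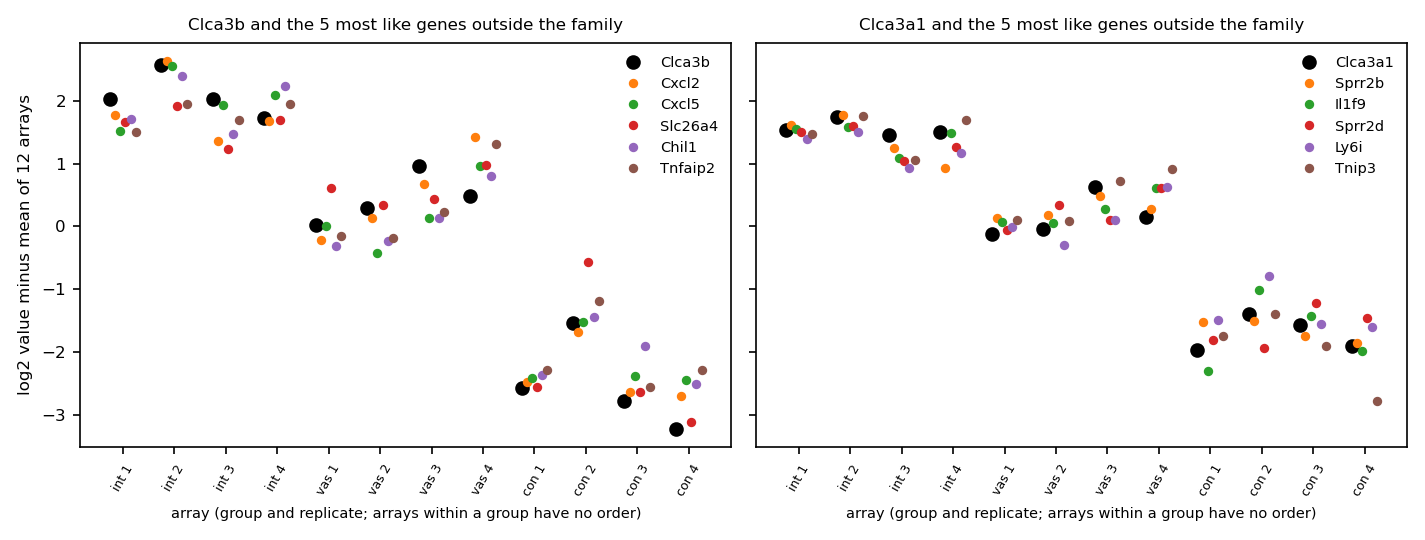
Log2 values minus each gene's mean over 12 arrays (vertical axis) for Clca3b and Clca3a1 (large black points) and the 5 most like genes outside the family (small coloured points), by array. The black points of intact-mated (int) arrays lie above those of vasectomized-mated (vas) arrays and these above controls (con), whereas Cxcl2 in vasectomized replicate 4 reaches its level in intact replicate 3.

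Genes of other chloride channels were not called higher in any comparison. Of 12 measured anoctamins and bestrophins, the families that hold the calcium-activated chloride channels, 0 passed in any comparison by limma (before correction p was under 0.05 for 2, 2 and 0 for intact against control, vasectomized against control and intact against vasectomized). Their median log2 fold-change was -0.04 in intact-mated females and -0.04 in vasectomized-mated females. Ano6, a lipid scramblase and ion channel, averaged 9.78, 9.94 and 10.12 in intact-mated, vasectomized-mated and control females, and Ano9 9.34, 9.36 and 9.55. The log2 fold-change of Ano6 in intact-mated females was -0.34 (limma adjusted p = 0.0233), under the fold threshold. Ano1, the channel that human CLCA1 acts on, was named after its values were seen and averaged 7.80, 7.60 and 8.28, with log2 fold-changes of -0.49 (limma adjusted p = 0.486) and -0.69 (limma adjusted p = 0.337).

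Of 14 other chloride channel genes of epithelia, 2 were lower and 0 higher in intact-mated females, beside 2.11% of all genes called lower. In vasectomized-mated females 0 were called in limma (unadjusted p under 0.05 for 1). Lrrc8a fell by 0.42 in intact-mated and by 0.31 in vasectomized-mated females (limma adjusted p = 0.00313 and 0.0397), under the fold threshold. Lrrc8c, a subunit of the volume-regulated anion channel, fell by 0.77 on the log2 scale in intact-mated females (limma adjusted p = 0.00875), and it was also the 1 gene called lower against vasectomized-mated females, beside 0.271% of all genes. Clcn2 fell by 0.74 against control (limma adjusted p = 0.00153). Against vasectomized-mated females it was lower by 0.54 (limma adjusted p = 0.0348), under the fold threshold. Cftr, the cyclic AMP-regulated chloride channel, was named after its values were seen and averaged 10.33, 10.46 and 10.49 in intact-mated, vasectomized-mated and control females.

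Genes of the goblet cell programme, in which Clca1 is a classical member, stayed mostly below the threshold. Of 16 measured, 1 was called higher in intact-mated females, beside 2.78% of all genes, and 0 in vasectomized-mated females or between the mated groups (limma, unadjusted p under 0.05 for 2 and 1). The 1 gene was Muc2, a gel-forming mucin, with a log2 fold-change of 0.72 (limma adjusted p = 3.12e-05) and means of 7.32, 6.88 and 6.61 in intact-mated, vasectomized-mated and control females. Under the fold threshold, Muc2 was higher by 0.27 in vasectomized-mated females than in controls (limma adjusted p = 0.0411). It was higher by 0.45 in intact-mated than in vasectomized-mated females (limma adjusted p = 0.00896). Among 12 genes of IL-4, IL-9 and IL-13 signalling, which induces Clca1 in airway and gut, 0 passed in any comparison by limma (before correction p was under 0.05 for 4, 1 and 2). Il13ra1, a receptor subunit for IL-13, averaged 12.18, 12.16 and 12.01, and Il4ra 10.92, 10.91 and 11.09. Il13ra2, named after its values were seen, was dim at 4.62, 4.67 and 5.03. Its log2 fold-changes from control were -0.41 and -0.36 (limma adjusted p = 0.0128 and 0.0443), under the fold threshold. Il33, also named after its values were seen, went the other way in intact-mated females, with means of 7.66, 7.08 and 7.12. There its log2 fold-change was 0.55 against control and 0.59 against vasectomized-mated females (limma adjusted p = 0.101 and 0.138).

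Of 6 measured genes reported as partners or effectors of CLCA proteins, 1 was higher and 1 lower in intact-mated females, beside 2.78% of all genes called higher and 2.11% lower. Mapk13, a p38 kinase that acts downstream of CLCA1 in human airway cells, rose by a log2 fold-change of 0.60 (limma adjusted p = 0.000565). In vasectomized-mated females Mapk13 rose by 0.42 (limma adjusted p = 0.0143), under the fold threshold. Itgb4, the β4 integrin that human CLCA2 binds, fell by 0.84 (limma adjusted p = 0.000221). In vasectomized-mated females Itgb4 also fell, by 0.61 (limma adjusted p = 0.00601), beside 0.657% of all genes called lower, and 0 of the 6 were called between the mated groups (limma, unadjusted p under 0.05 for 3).

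Markers of the cells in the scrapes were read beside the Clca genes. The summed level of 12 epithelial markers overlapped between groups, at 15.74 to 15.78 in intact-mated, 15.67 to 15.75 in vasectomized-mated and 15.63 to 15.80 in control arrays. Its overlap is not read as equal epithelial content, as the brightest genes weigh most. Of these markers 1, Ehf, was called higher in intact-mated females (log2 fold-change 0.70), beside 2.78% of all genes. Under the fold threshold, Ehf rose by 0.52 in vasectomized-mated females (limma adjusted p = 0.0062). Cldn7 rose by 0.55 in intact-mated females (limma adjusted p = 0.000525), and by 0.32 against vasectomized-mated females (0.0422). Krt7 fell by 0.35 and 0.50 in intact-mated and vasectomized-mated females (limma adjusted p = 0.0276 and 0.0104). Of 12 neutrophil markers 3 were higher in intact-mated females, beside 2.78% of all genes, and 0 in vasectomized-mated females (limma, unadjusted p under 0.05 for 1). Cxcr2, the neutrophil chemokine receptor, averaged 7.29 in intact-mated, 5.36 in vasectomized-mated and 5.04 in control arrays, and S100a9 7.32, 6.15 and 5.89. Csf3r averaged 7.65, 6.56 and 6.51. The other 9 were not called. Among them S100a8 was higher in intact-mated females, under the fold threshold. Its log2 fold-change was 0.47 against control and 0.49 against vasectomized-mated females (limma adjusted p = 0.0241 and 0.049). Retnlg had 0.29 against control (limma adjusted p = 0.361). Ly6g averaged 9.57, 9.84 and 10.02 in the same order of groups. The granule genes Ngp, Camp, Mmp8, Elane and Mpo had log2 fold-changes from control of 0.04 to 0.15 in intact-mated females. The 3 called markers were also called higher in intact-mated than in vasectomized-mated females, beside 0.627% of all genes, as the Clca3 genes were, and their part in that difference was not tested. The summed neutrophil level was 12.16 to 12.37, 12.13 to 12.26 and 11.59 to 12.28 in the same order. That sum mostly follows its brightest genes, Itgam (11.58, 11.61 and 11.22) and Ly6g, and the 3 called markers weigh little in it. Its overlap between groups is therefore not read as equal neutrophil content.

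Squamous markers had 1 higher and 1 lower of 12 in intact-mated females, beside 2.78% and 2.11% of all genes, namely Dsg3 (log2 fold-change 1.04) and Krt13, which fell by 0.72 and, in vasectomized-mated females, by 0.73. Of 8 stromal markers 2 were lower in intact-mated females, beside 2.11% of all genes, Lum, which fell by 0.97, and Col1a1, by 0.75. The median log2 fold-change of the 8 stromal markers was -0.62 in intact-mated and -0.33 in vasectomized-mated females (limma, unadjusted p under 0.05 for 6 and 1). Their summed level ran from 12.77 to 13.58 in intact-mated, 13.17 to 13.87 in vasectomized-mated and 13.40 to 14.25 in control arrays, and its part in the Clca values was not tested. Of the markers of smooth muscle, endothelium, macrophages, mast cells and eosinophils, oviduct, sperm and male accessory glands, 0 were called in any comparison by limma (before correction p was under 0.05 for 0 to 2 of each list). The summed level of 7 macrophage markers was nevertheless above controls in both mated groups, at 12.59 to 12.87 in intact-mated, 12.67 to 12.80 in vasectomized-mated and 12.10 to 12.58 in control arrays. That sum mostly follows its brightest gene, Cd68, a lysosomal protein of macrophages. Cd68 had log2 fold-changes of 0.45 and 0.46 (limma adjusted p = 0.00631 and 0.0125) in intact-mated and vasectomized-mated females, under the fold threshold. Among the other genes of the list the highest log2 fold-changes were those of C1qa, at 0.11 and 0.19. Adgre1, Mrc1 and C1qb had negative ones in both groups. The higher sum is therefore not read as a rise of the list as a whole. The part of macrophage markers in the Clca3 values was not tested. The summed level of 7 sperm markers was 9.19 to 9.26, 9.07 to 9.11 and 9.01 to 9.21 in intact-mated, vasectomized-mated and control arrays. Intact-mated arrays thus lay above vasectomized-mated ones, while controls overlapped both. Tnp1 of this list had a log2 fold-change of 0.28 in intact-mated females (limma adjusted p = 0.048). Dynlrb2 of the oviduct list had 0.26 (limma adjusted p = 0.0461). Both were dim and under the fold threshold. The part of sperm markers in the Clca3 values was not tested. The summed level of 9 accessory gland markers was 8.39 to 8.45, 8.31 to 8.50 and 8.39 to 8.53 in the same order of groups.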

How the data were processed

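Endometrial RNA (300 ng per array) was measured on Affymetrix Mouse Gene 1.0 ST arrays, 4 per group and 12 in all. The authors processed them in Partek Genomics Suite (RMA background correction, GC-content correction, probes summarized by their mean) and deposited the result as log2 values. No source used here states versions or a normalization between arrays. Per-array columns left out numbered 0. limma 3.58.1 (R 4.3.3) estimated a mean for each group from all 12 arrays for 35556 rows, without trend (prior degrees of freedom 3.26, residual 9), with Benjamini-Hochberg correction over all rows. Thresholds followed the methods (1.5-fold, adjusted p of 0.05). Of 21789 rows with 1 symbol 21698 matched a RefSeq gene, 1621 rows had several symbols and 12146 none. Where a gene had several rows, the row of highest mean stood for it. The code was tested on simulated data.

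The genes, 17 lists (158 of 165 entries measured, with Cdh1 in both the partner and the epithelial list), tests and naming rule were chosen with earlier results of these data known. Named were the Clca genes, up to 4 called genes per list by size of change, the 2 brightest of pathway lists with none called, and the 5 genes most like each Clca3 gene. Further genes of the lists were named with their values in view. Promoters were aligned locally in Biopython 1.88, scoring 2 for a match, -3 for a mismatch, -5 to open and -2 to extend a gap. The windows of Clca3b, Clca3a1, Clca2 and Clca4b were searched and those of Clca3b and Clca3a1 printed, while those of other Clca genes are not reported here. Alternatives were other normalizations, moderations, weights, a replicate block, fits of 2 groups, filters, fold thresholds, control subsets and leaving out each array. The number of arrays limits the precision, and pools within a group measure the spread between pools only. The lowest correlation between arrays of a group was 0.983.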

Additional observations from a re-analysis of the deposited data

Results flagged for a closer look

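Clca2 after mating with vasectomized males had 1 array apart from the others. Replicate 1 read 6.20, while the other replicates read 5.84 to 5.89, so that the gap took up 0.85 of the whole range of the group. Of 15 groups examined (5 genes in 3 groups) this was the only one past Dixon's 95% limit for 4 values, and chance alone flags about 1 group in 20. The values lie below the array medians, and Clca2 was not called in any comparison.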

How the results depend on the processing

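Against controls 3 Clca genes were called in each alternative but one, which their choice for large increases fixed and which is no sign of stability. Without a fold threshold, Clca1 was added in vasectomized-mated females, which gave 4. Between the mated groups it was 2 without variance moderation (Clca3b lost, limma adjusted p = 0.0649) and 1 to 3 when each array was left out in turn, with 1 left without intact replicate 2, and 3 in all other alternatives. The log2 fold-change of Clca3b was 4.15 and 2.50 with controls 1 and 2 only and 5.10 and 3.45 with controls 3 and 4 only, in intact-mated and vasectomized-mated females. Clca2 turned in sign with controls 3 and 4 only, to 0.23 in intact-mated females and 0.13 in vasectomized-mated females, and ran from -0.25 to 0.02 in intact-mated females when arrays were left out, being 0.0209 without control replicate 1 and 0.0032 without control replicate 2. It had no value when dim rows were left out. Replicate numbers did not pair the arrays, as deviations of same-numbered arrays correlated at -0.255 to 0.205, 2 of 12 above 0.1, and the best match carried the same number in 6 of 24 cases. With the replicate block 3 Clca genes were called in each comparison, and over all genes 954, 319 and 120 were called, against 976, 368 and 179 without it, for intact against control, vasectomized against control and intact against vasectomized. The block changed no call of a Clca gene. The cause of these changes was not tested. Signal over background was not measured here, which limits what can be read from the dim Clca2.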
